A study of Mus musculus with 8 samples.

Results

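The genes examined here are 46 cell cycle and mitosis genes, from the D cyclins that act in G1 to the motors and kinetochore proteins of mitosis. They were chosen by symbol for their function, without a threshold on any measured value, and 45 of them had a row among the 23045 genes of the table; Cdkn2a was not analysed here. All 45 had a mean of at least 3 over the 8 libraries, the level called measurable here, which 16880 genes of the table reached. Total RNA from hearts of 4 WT and 4 Mettl3 KO mice had been sequenced to compare hearts that lack Mettl3, the methyltransferase for N6-methyladenosine (m6A) on RNA, in cardiomyocytes with control hearts. The WT mice were Mettl3lox/lox, with loxP-flanked Mettl3 and no Cre. The Mettl3 KO mice were Mettl3lox/lox:alphaMHC-MerCreMerpos, and so carried the same floxed gene together with a tamoxifen-activated Cre under the promoter of the cardiac α-myosin heavy chain. According to the methods, animals of both genotypes were 10 to 16 weeks old and were given 100 µg tamoxifen per g of body weight intraperitoneally on 7 consecutive days. The time from the injections to the collection of the hearts is not given in the sources used here. Cre was made in cardiomyocytes only, while the libraries came from heart tissue, so fibroblasts, endothelial cells and other cells contributed their own, unrecombined Mettl3 and their own cell cycle transcripts. Loss of Mettl3 and presence of the Cre transgene cannot be told apart, and neither can fewer cells of a type and less RNA per cell. The labels number the hearts within a genotype and say no more of their origin, so p-values concern these libraries only. Those from the linear model (limma) also draw on the variance of other genes.

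Values are normalised read counts, rounded to whole numbers by the authors, and summed to between 2839589 and 2916986 per library. A value near 1 stood for 1 read, and the limit that a count of 0 allows (3 reads) was 2.78 to 3.33 on this scale. Mettl3 was at 105, 133, 118 and 107 in WT replicates 1 to 4 and at 74, 68, 69 and 78 in Mettl3 KO replicates 1 to 4, which was a log2 change (Mettl3 KO minus WT) of -0.67 (SE 0.10, limma adjusted p = 0.000184). Cardiomyocyte markers were abundant in every library, with sums over 8 genes of 91276 to 97881 in WT and 88729 to 99171 in Mettl3 KO, and 1 of the 8 was called lower. Of the lists that mark other cells, 7 of 8 fibroblast genes were called higher (sums of 4465 to 4974 in WT and 5523 to 6176 in Mettl3 KO) and 4 of 8 endothelial genes were called lower (5172 to 5361 against 4466 to 4867). None of the 8 macrophage, 7 lymphocyte, 6 smooth muscle, 5 blood or 4 Schwann cell genes was called, and lymphocyte genes summed to only 11 to 30 in every library, with Cd3d at 0 in 3 of them. The 5 blood genes all had a lower mean log2 value in Mettl3 KO (median log2 change -0.33), with sums of 174 to 285 in WT and 123 to 199 in Mettl3 KO. Of 6 activated fibroblast genes, 3 (Postn, Cilp and Comp) were called higher, and the list summed to 630 to 819 against 1088 to 1543. All 4 atrial genes were called higher (sums of 17 to 150 against 146 to 911), and for each of them the ranges of the genotypes overlapped. The part of any of these cells in the results below was not tested.

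Division of a cell runs from G1, in which D cyclins with Cdk4 and Cdk6 inactivate the retinoblastoma protein Rb1 and so free the E2F transcription factors, through S phase, in which the MCM helicase and its loaders start replication, to mitosis, driven by Cdk1 with the A and B cyclins. Genes for mitosis are transcribed late in the cycle, and many are controlled by the MuvB complex with B-Myb and Foxm1 through a promoter element known as the cell cycle genes homology region (CHR), often next to CCAAT boxes that bind NF-Y. Most cardiomyocytes of the adult mouse no longer divide, and other cardiac cells also carry transcripts of this group.

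Among the 45 genes, 3 were called lower in the Mettl3 KO hearts at an adjusted p under 0.05 (Cenpf, Cdk1 and Prc1) and 0 were called higher. The shares of the 16880 measurable genes called were 3.77% lower and 5.63% higher. At an unadjusted limma p under 0.05, 12 of the 45 were lower and 0 higher, against 11.0% and 12.4% of all measurable genes. In these 12, the exact permutation p (two-sided, 4 against 4) ran from 0.0286, the smallest possible, to 0.229 (Mki67). The limma fit draws the variance of a gene towards that of genes of like level. Members spread more among WT hearts than all measurable genes did (median coefficient of variation 28.6%, beside 11.7%), so their limma p-values may be too small. The count of 12 was 7 without WT replicate 2 or WT replicate 4, 8 without Mettl3 KO replicate 3 and 16 without WT replicate 3. A negative log2 change was found for 36 of the 45 and for 51.6% of all measurable genes, and the median was -0.25 (range -1.17 to 0.28) for the 45 and -0.01 for all. Without WT replicate 2 the members' median was -0.16 and without WT replicate 3 it was -0.39. For 2 members, Cenpf and Cdk1, the genotypes were fully separate, both lower in the Mettl3 KO hearts, and 0 members lay wholly above the WT hearts. Of all measurable genes, 5.86% lay wholly below and 7.63% wholly above.

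The 3 called genes act late in the cycle, and their promoters are shown because all of them hold a CHR. The sequences are RefSeq's for GRCm38.p6, an earlier build than the mm39 of the gene table, and run from 150 bases before the annotated start site to 10 bases from it on, on the strand of the gene. Capitals mark the CHR (TTTGAA), the CCAAT box (CCAAT) and E2F sites (TTTGGCGC, TTTCGCGC, TTTCCCGC or TTTGCCGC), each on either strand, so that ATTGG is a CCAAT box on the other strand.
Cenpf promoter (chr1:189688077-189688236, minus strand): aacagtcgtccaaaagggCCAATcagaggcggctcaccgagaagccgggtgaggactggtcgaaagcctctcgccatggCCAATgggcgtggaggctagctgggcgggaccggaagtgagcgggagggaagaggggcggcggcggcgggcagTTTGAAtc
Cdk1 promoter (chr10:69352903-69353062, minus strand): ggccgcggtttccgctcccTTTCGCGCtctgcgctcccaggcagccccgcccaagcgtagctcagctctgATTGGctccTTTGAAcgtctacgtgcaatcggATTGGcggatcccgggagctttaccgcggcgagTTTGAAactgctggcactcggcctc
Prc1 promoter (chr7:80294301-80294460, plus strand): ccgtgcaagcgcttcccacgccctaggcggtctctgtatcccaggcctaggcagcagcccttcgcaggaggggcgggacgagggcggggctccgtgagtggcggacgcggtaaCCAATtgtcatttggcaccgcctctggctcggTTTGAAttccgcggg
The CHR of Cenpf began 2 bases after the start site, with CCAAT boxes at -132 and -71. Cdk1 held CHR matches at -71 and -15, CCAAT boxes at -208, -80 and -48, and an E2F site at -131, the only one in a mitotic member. In Prc1 the CHR was at -5 and a CCAAT box at -37, counted from the upstream of its 2 annotated start sites, which lie 25 bases apart.

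A promoter of 300 bases, 250 before the start site and 50 after, was found for 36 of the 45 members. The CHR letters were in 14 of these 36 (38.9%), beside 20.2% of the 27025 mouse genes with a RefSeq promoter, whether or not they are in the gene table, and in 12 of 16 mitotic members including Mki67 and Top2a (75.0%), 1 of 11 S phase members (Mcm2, 9.09%) and 0 of 5 G1 members. CHR and CCAAT box stood together in 11 of the 16 mitotic members (68.8%) and in 7.97% of those 27025 genes. E2F letters were found mainly elsewhere, in 6 of 11 S phase members (54.5%), 1 of 16 mitotic members (6.25%) and 2.6% of the 27025. The letters CCAAT are short and were common, in 27 of 36 members (75.0%) and 41.1% of the 27025. Every one of the 14 members with a CHR had it within 100 bases of a start site. All 14 had a negative log2 change (median -0.51, range -1.17 to -0.23), beside 51.6% of all measurable genes. The 22 members with a promoter and no CHR had a median of -0.13, and 17 of them were negative. Since 12 of the 14 are mitotic members, this difference and that between the phases cannot be told apart. Mitotic members also followed the same hearts, so the 14 are not separate observations. WT replicate 3 was the lowest WT heart in 15 of the 18 mitotic members. The 4 mitotic members whose promoter holds no CHR were Bub1 (-0.58), Ccnb1 (-0.29), Cenpe (-0.07) and Birc5 (0.03). A match describes the letters of this window and no bound factor.

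**Figure D1:**
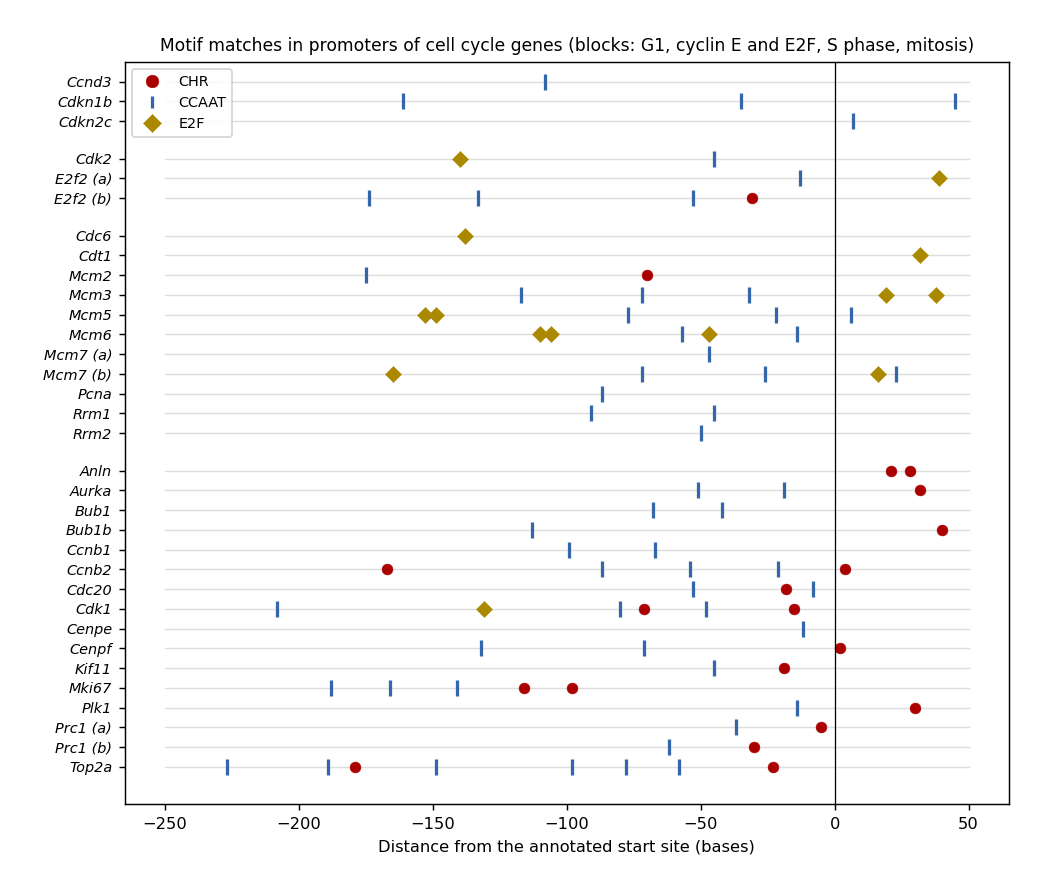
Distance in bases of CHR, CCAAT and E2F letters from the annotated start site, for every member promoter with a match; a and b are separate start sites of a gene, and members without a match or a promoter entry are not drawn. CHR matches (red circles) sit mainly in the mitotic block, where 12 of 16 members have them, and E2F sites (yellow diamonds) in the S phase block, with 6 of 11.

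The WT hearts differed among themselves in these genes before any comparison of genotypes. WT replicate 3 had the lowest WT value in 31 of the 45 genes (68.9%, beside 23.4% of all measurable genes) and WT replicate 2 the highest in 20 (44.4%, beside 22.0%). Relative to the WT mean of each gene, the median of the 18 mitotic members stood at 92.1%, 140% (WT replicate 2), 54.7% (WT replicate 3) and 105% in WT replicates 1 to 4, and at 64.3%, 71.1%, 50.8% and 73.4% in the Mettl3 KO hearts. WT replicate 3 thus lay below 3 of the 4 Mettl3 KO libraries, while the other WT libraries lay above all of them. Atrial genes also set WT replicate 3 apart, with a sum over 4 genes of 17 beside 137 to 150 in the other WT libraries and 146 to 911 in the Mettl3 KO libraries. The share of atrial tissue in a heart sample is not given by the labels, and its part in the mitotic values was not tested.

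For S phase members the same medians were 98.7%, 111%, 79.7% and 111% in WT replicates 1 to 4 and 86.2%, 103%, 88.2% and 90.0% in Mettl3 KO replicates 1 to 4, so the genotypes overlapped. The 8 G1 members moved least, between 94.7% and 103% in WT and between 90.7% and 97.5% in Mettl3 KO. The median log2 change was -0.57 over the 18 mitotic members, 17 of them negative, and -0.10 over both the 12 S phase and the 8 G1 members. With Cenpf left out the mitotic median was -0.56. These sets were drawn up with earlier results of these data known, and they leave out 7 members that act at the borders of the phases or control transcription, namely Ccna2 (-0.74), Foxm1 (-0.48), Cdk2 (-0.44), E2f1 (-0.30), Ccne1 (-0.27), E2f2 (-0.23) and Ccne2 (0.28).

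**Figure D2:**
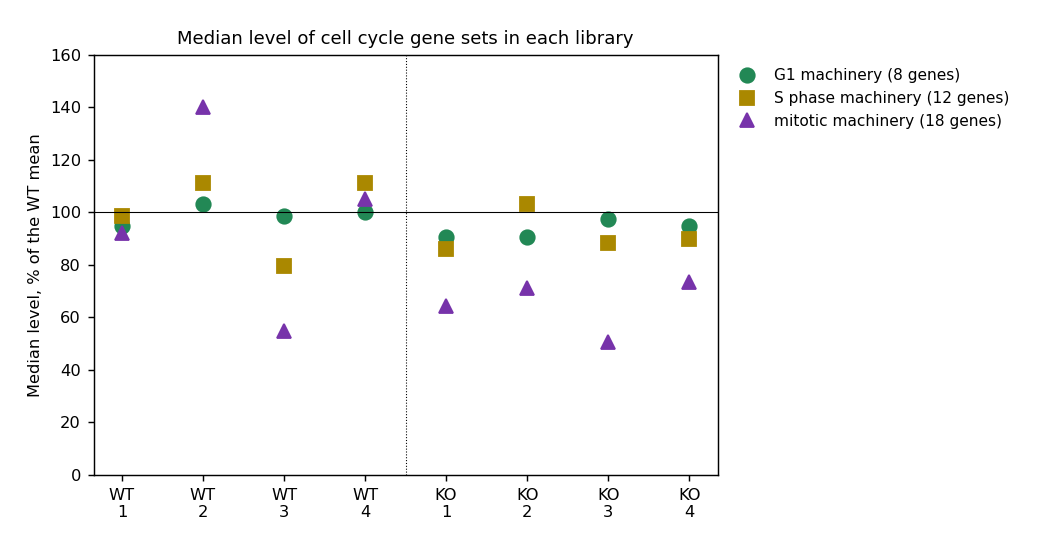
Median level of G1 (8 genes), S phase (12 genes) and mitotic members (18 genes) in each library, as a percentage of the WT mean of each gene. The mitotic medians (triangles) run from 54.7% to 140% among WT libraries and from 50.8% to 73.4% among Mettl3 KO libraries, whereas the G1 medians (circles) stay between 90.7% and 103%.

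Cenpf, a very large protein of the nuclear matrix that moves to kinetochores in mitosis, was lower in every Mettl3 KO heart (ENSMUSG00000026605, chr1:189372803-189420283, minus strand, mm39). Its normalised read counts were 495, 414, 427 and 381 in WT replicates 1 to 4 and 252, 292, 217 and 272 in Mettl3 KO replicates 1 to 4. The ranges did not overlap, and WT replicate 3 was not low nor WT replicate 2 high for this gene. The mean was 429.2 ± 47.9 (SD, n = 4) in WT and 258.2 ± 32.0 (SD, n = 4) in Mettl3 KO, or 60.2% of WT. The log2 change was -0.73 (SE 0.08, 95% interval -0.90 to -0.56, limma adjusted p = 4.98e-06). An exact permutation test (two-sided, 4 against 4) gave p = 0.0286, the smallest this design allows. Cenpf was called under all 22 alternative settings, with fold changes of -0.79 to -0.65 on the log2 scale.

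The other spindle, kinetochore and cytokinesis members were Kif11, Kif20a, Cenpe, Prc1 and Anln, and all 6 of the group had a negative log2 change (median -0.56). Prc1 bundles the antiparallel microtubules of the central spindle (ENSMUSG00000038943, chr7:79944198-79966007, plus strand). It was at 56, 98, 29 and 60 in the WT hearts and at 29, 30, 30 and 35 in the Mettl3 KO hearts. WT replicate 3 lay among the Mettl3 KO values, and WT replicate 2 was far above the rest. The mean fell from 60.8 ± 28.4 (SD, n = 4) to 31.0 ± 2.71 (SD, n = 4), with a log2 change of -0.83 (SE 0.23, limma adjusted p = 0.0293). The exact permutation test gave p = 0.143, and 11 of 22 alternative settings took Prc1 over the threshold, up to an adjusted p of 0.247 in limma without a trend. Without WT replicate 2 its log2 change was -0.56 (limma adjusted p = 0.151).

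Kif20a, the kinesin that carries the cytokinesis machinery to the central spindle, was at 17, 32, 13 and 24 in WT and at 8, 14, 12 and 12 in Mettl3 KO, a log2 change of -0.80 (SE 0.28, limma adjusted p = 0.0848). Kif11, the motor that pushes spindle poles apart, was at 53, 73, 32 and 79 against 43, 40, 41 and 47 (-0.38, SE 0.20, limma adjusted p = 0.286). In both genes WT replicate 3 lay within or below the Mettl3 KO values. Anln, an anillin that scaffolds the cleavage furrow, had a log2 change of -0.27 (SE 0.25), and Cenpe, a kinesin of the kinetochore, of -0.07 (SE 0.24). The WT values of Cenpe ran from 22 (WT replicate 3) to 76 (WT replicate 2), and the Mettl3 KO values from 35 to 44. None of these 4 genes passed the test.

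Cdk1, the kinase that drives entry into mitosis, was called lower at a low level (ENSMUSG00000019942, chr10:69170976-69188768, minus strand). Values were 15, 24, 12 and 18 in the WT hearts and 11, 7, 4 and 7 in the Mettl3 KO hearts, without overlap. The lowest WT value, in WT replicate 3, and the highest Mettl3 KO value, in Mettl3 KO replicate 1, were 12 and 11. The mean fell from 17.2 ± 5.12 (SD, n = 4) to 7.25 ± 2.87 (SD, n = 4), or 42.0% of WT, and the log2 change was -1.17 (SE 0.31, limma adjusted p = 0.0201; exact permutation p = 0.0286). It was the lowest fold change of the 45. The call was lost without WT replicate 2 (limma adjusted p = 0.0954), WT replicate 4 (0.0639), Mettl3 KO replicate 2 (0.0510) or Mettl3 KO replicate 3 (0.0816), in limma without a trend (0.102), and without WT replicates 2 and 3 together (0.139).

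Of its B cyclin partners, both scarce, neither passed the test. Ccnb1, the main mitotic cyclin, was at 12, 10, 0 and 5 in WT and at 2, 7, 1 and 7 in Mettl3 KO (6.75 ± 5.38 against 4.25 ± 3.20, SD, n = 4). WT replicate 3 was at 0, and WT replicates 1 and 2 lay above every Mettl3 KO heart. The log2 change was -0.29 (SE 0.63, limma adjusted p = 0.864), and its 95% interval of -1.60 to 1.02 holds changes of either sign. Ccnb2 was at 4, 19, 7 and 10 against 4, 5, 5 and 4, a log2 change of -0.82 (SE 0.38, limma adjusted p = 0.225), and WT replicate 2 lay far above the rest.

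Ccna2, the A cyclin of S phase and early mitosis (ENSMUSG00000027715, chr3:36619014-36626299, minus strand), came close to the threshold. It was at 37, 51, 20 and 47 in the WT hearts and at 19, 22, 18 and 28 in the Mettl3 KO hearts. All WT hearts but WT replicate 3 lay above every Mettl3 KO heart. The mean was 38.8 ± 13.8 (SD, n = 4) in WT and 21.8 ± 4.50 (SD, n = 4) in Mettl3 KO, with a log2 change of -0.74 (SE 0.24, limma adjusted p = 0.0584; exact permutation p = 0.0857). Over the 22 settings it ran from -1.02 to -0.59 and was called in 4, among them with no filter on low genes (limma adjusted p = 0.0474), without WT replicate 3 (0.00265) and without WT replicates 2 and 3 (0.0417). Cdk2, the kinase that A and E cyclins activate, was at 102, 92, 86 and 82 against 44, 73, 84 and 71, and WT replicate 3 was not low for it (-0.44, SE 0.15, limma adjusted p = 0.0738). The E cyclins, which act at the start of S phase, went apart in sign without passing the test, Ccne1 at -0.27 (SE 0.39) and Ccne2 at 0.28 (SE 0.19), the highest fold change of the 45.

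Mki67 and Top2a are the proliferation markers most used in tissue, the former coating mitotic chromosomes and the latter untangling replicated DNA. Mki67 (ENSMUSG00000031004, chr7:135291513-135318090, minus strand) was at 321, 491, 200 and 385 in WT and at 285, 270, 204 and 268 in Mettl3 KO. Top2a (ENSMUSG00000020914, chr11:98883769-98915015, minus strand) was at 128, 183, 77 and 168 against 123, 103, 71 and 94. Both had the same order of WT hearts, with WT replicate 3 at or near the lowest Mettl3 KO value and the other WT hearts above every Mettl3 KO heart. For Mki67 the means were 349.2 ± 122.0 and 256.8 ± 36.0 (SD, n = 4), a log2 change of -0.38 (SE 0.16, limma adjusted p = 0.181). For Top2a they were 139.0 ± 47.4 and 97.8 ± 21.6 (SD, n = 4), a log2 change of -0.46 (SE 0.19, limma adjusted p = 0.160). Neither passed the test, and the exact permutation test gave p = 0.229 for Mki67 and 0.171 for Top2a. In limma with robust variance the adjusted p was 0.564 for Mki67 and 0.519 for Top2a. Without WT replicate 3 both were called (Mki67 -0.62, limma adjusted p = 0.00111, and Top2a -0.71, limma adjusted p = 0.00301). Without WT replicate 2 the log2 changes were -0.19 for Mki67 (limma adjusted p = 0.563) and -0.30 for Top2a (0.462), and without Mettl3 KO replicate 3 they were -0.27 (0.490) and -0.31 (0.472).

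**Figure D3:**
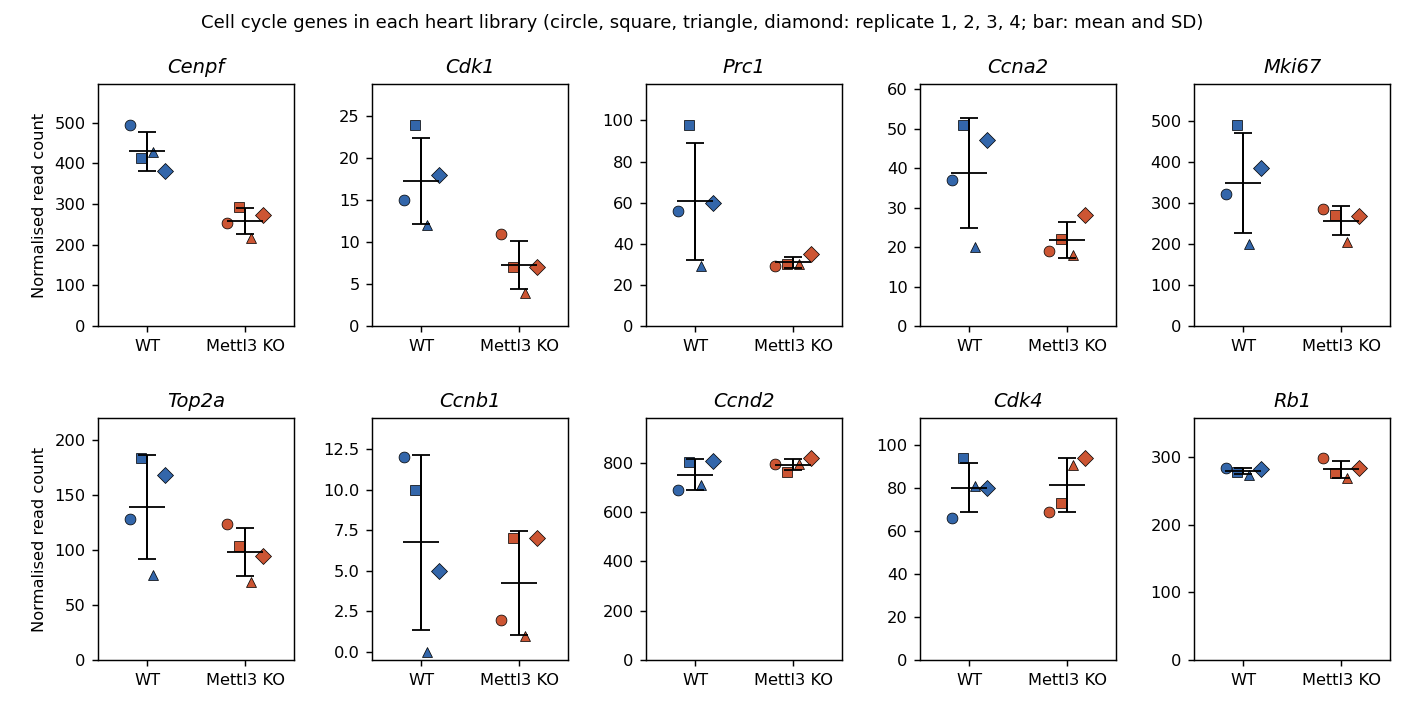
Normalised read counts of 10 members in each heart library, with the mean and SD of each genotype (n = 4); the marker shape gives the replicate number. Cenpf and Cdk1 do not overlap between genotypes, Prc1, Ccna2, Mki67 and Top2a share the low WT replicate 3 (blue triangle, 29, 20, 200 and 77), and Ccnd2, Cdk4 and Rb1 lie at like levels in both.

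The 7 mitotic kinases and checkpoint proteins were all scarce, and 6 had a negative log2 change (median -0.58). Cdc20, the activator of the anaphase promoting complex, was at 13, 9, 7 and 13 in WT and at 7, 5, 4 and 8 in Mettl3 KO (-0.71, SE 0.33, limma adjusted p = 0.210). Plk1, a kinase of spindle poles and kinetochores, was at 7, 9, 9 and 9 against 4, 5, 7 and 6 (-0.56, SE 0.32, limma adjusted p = 0.340). For Plk1 the genotypes met at 7, in WT replicate 1 and Mettl3 KO replicate 3. The Aurora kinases Aurka and Aurkb and the checkpoint kinase Bub1 each had a log2 change of -0.58 with SE of 0.47, 0.43 and 0.38. Bub1b, the checkpoint partner of Bub1, was at -0.25 (SE 0.21) and Birc5, survivin of the chromosomal passenger complex, at 0.03 (SE 0.34). None of the 7 passed the test, and all but Bub1b had WT means of 10.5 or less, a range (mean values of 3 to 20) in which the fit to simulated data found 16.7% of changes of 1 on the log2 scale.

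Of the G1 members, Ccnd2 and Ccnd1 were the most abundant per kb in WT, and the test called no D cyclin. Ccnd2 (ENSMUSG00000000184, chr6:127102125-127129156, minus strand) was at 690, 803, 707 and 805 in WT and at 793, 762, 793 and 817 in Mettl3 KO (751.2 ± 61.3 against 791.2 ± 22.5, SD, n = 4). The ranges overlapped and the log2 change was 0.08 (SE 0.05, 95% interval -0.03 to 0.19, limma adjusted p = 0.451). Ccnd1 (ENSMUSG00000070348, chr7:144483668-144493662, minus strand) was at 284, 353, 330 and 363 against 334, 293, 281 and 284 (332.5 ± 35.2 and 298.0 ± 24.5, SD, n = 4). The ranges of 284 to 363 in WT and 281 to 334 in Mettl3 KO overlapped. The log2 change was -0.15 (SE 0.07, 95% interval -0.31 to 0.00, limma adjusted p = 0.244). The share of Ccnd1 among the values of the 3 D cyclins was 25.5% to 28.2% in WT and 22.9% to 27.4% in Mettl3 KO. Ccnd3 was at -0.20 (SE 0.11).

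Of their kinases, Cdk4 (ENSMUSG00000006728, chr10:126899403-126903789, plus strand) was at 66, 94, 81 and 80 in WT and at 69, 73, 91 and 94 in Mettl3 KO (80.2 ± 11.4 against 81.8 ± 12.6, SD, n = 4). The hearts of both genotypes covered the same range (log2 change 0.02, SE 0.13, 95% interval -0.24 to 0.29, limma adjusted p = 0.948). Cdk6 was at 302, 274, 356 and 306 against 284, 280, 252 and 238 (-0.23, SE 0.08, limma adjusted p = 0.0718) and had its WT maximum in WT replicate 3. Without WT replicate 2 or without Mettl3 KO replicate 1, Cdk6 was among the genes called lower.

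Rb1, which holds E2F factors inactive (ENSMUSG00000022105, chr14:73421113-73563262, minus strand), was even across the hearts. It was at 283, 278, 273 and 282 in WT and at 298, 277, 269 and 283 in Mettl3 KO (279.0 ± 4.55 against 281.8 ± 12.3, SD, n = 4). The log2 change was 0.01 (SE 0.06, 95% interval -0.11 to 0.14, limma adjusted p = 0.941). Cdkn1b, the inhibitor p27 of G1 and S phase kinases (ENSMUSG00000003031, chr6:134897364-134902476, plus strand), was at 239, 234, 249 and 224 against 212, 233, 233 and 234 (236.5 ± 10.4 and 228.0 ± 10.7, SD, n = 4). The ranges overlapped, with a log2 change of -0.05 (SE 0.07, 95% interval -0.19 to 0.08, limma adjusted p = 0.733). Cdkn2c, an inhibitor of Cdk4 and Cdk6, was at -0.23 (SE 0.19). Of other inhibitors, Cdkn1a (p21) was at -0.15 (SE 0.16), Cdkn1c at -0.02 (SE 0.10) and Cdkn2d at 0.36 (SE 0.18), and Cdkn2b, at 1 to 5 in every library, was below the measurable level. None of these inhibitors passed the test.

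The 12 S phase members were called in neither direction. Of the MCM helicase subunits, Mcm2 was at 55, 85, 51 and 66 in WT and at 55, 47, 46 and 52 in Mettl3 KO (-0.33, SE 0.15, limma adjusted p = 0.198). The other subunits, Mcm3 to Mcm7, had log2 changes of -0.13 (SE 0.14, Mcm7) to 0.04 (SE 0.19, Mcm3). WT replicate 3 was the lowest WT heart in 10 of the 12, as in the mitotic members, while the median Mettl3 KO level of the set was within the WT range. Of the helicase loaders, Cdc6 was at 10, 10, 7 and 9 against 8, 3, 7 and 5 (-0.62, SE 0.34) and Cdt1 was at 0.06 (SE 0.35). The sliding clamp Pcna and the large ribonucleotide reductase subunit Rrm1 were each at -0.13 (SE 0.12 and 0.09), thymidylate synthase Tyms at -0.09 (SE 0.18) and the small reductase subunit Rrm2 at 0.18 (SE 0.27). Among transcription factors, Foxm1, which activates mitotic genes, was at 16, 14, 11 and 12 against 9, 12, 9 and 7 (-0.48, SE 0.27, limma adjusted p = 0.343). E2f1 and E2f2, activators of S phase genes, were at -0.30 (SE 0.36) and -0.23 (SE 0.45), with WT means of 7.50 and 5.75.

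**Figure D4:**
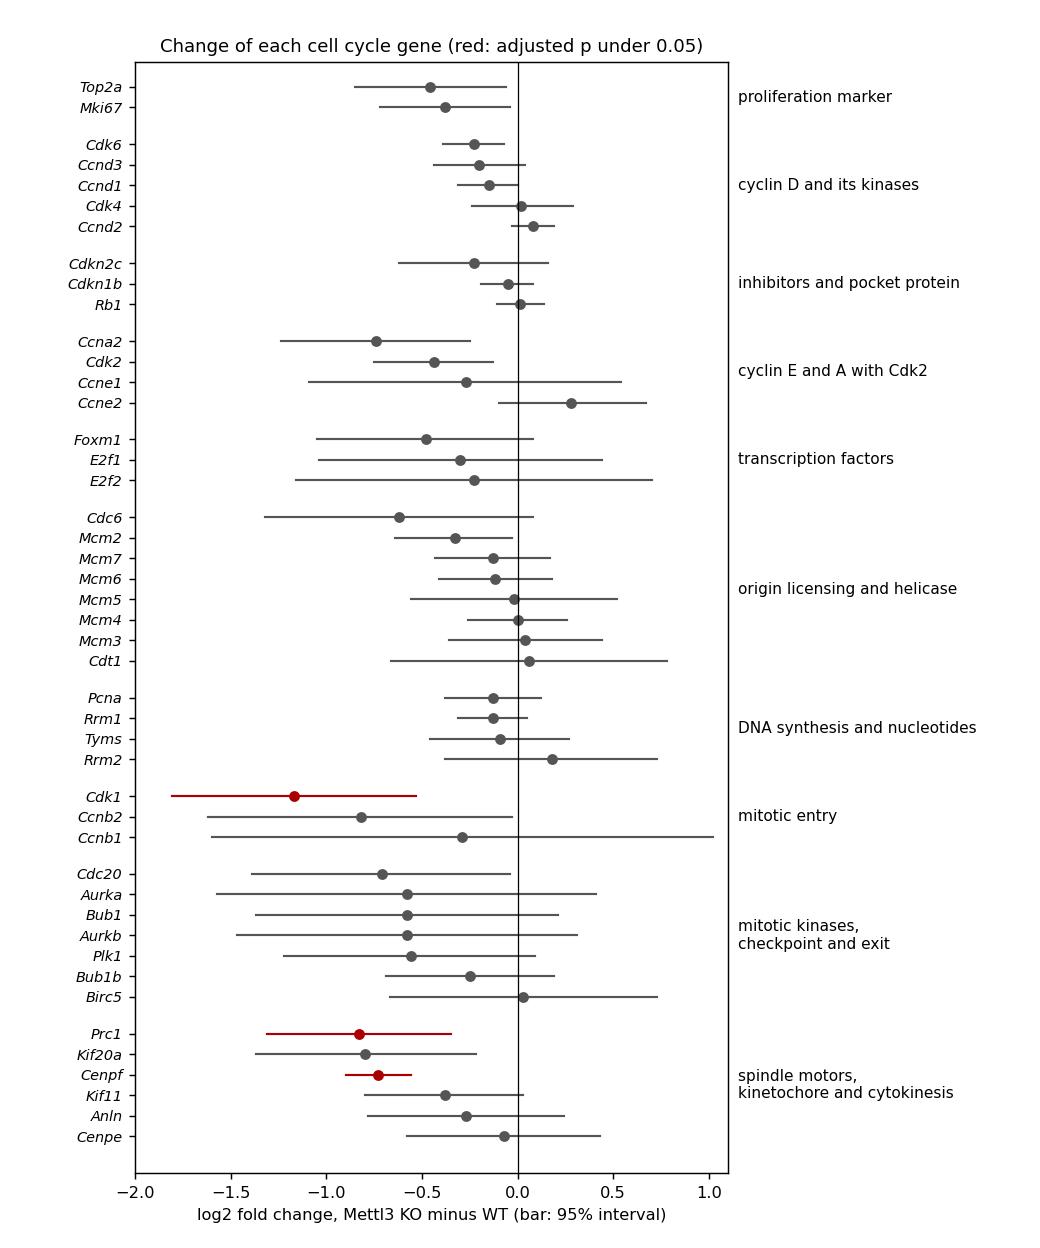
Log2 change (Mettl3 KO minus WT, on the log2(value + 1) scale) of the 45 members with 95% intervals, grouped by role. Cdk1, Prc1 and Cenpf (red) are the 3 called members, the G1, helicase and DNA synthesis groups centre near 0, and all 6 spindle and kinetochore members lie to the left of 0.

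Levels between genes were compared per kb of exon. In WT, Ccnd2 (79.8 normalised counts per kb) and Ccnd1 (70.6) came first, before Cdkn1b (52.0) and Rb1 (46.4). The most abundant late members were Mki67 (34.7) and Cenpf (27.8), beside 3.50 for Cdk1, 7.39 for Prc1, 9.49 for Ccna2 and 1.60 for Ccnb1. The lowest was E2f2 (1.18). In Mettl3 KO hearts Cenpf was at 16.7 per kb, Mki67 at 25.5 and Cdk1 at 1.47.

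**Figure D5:**
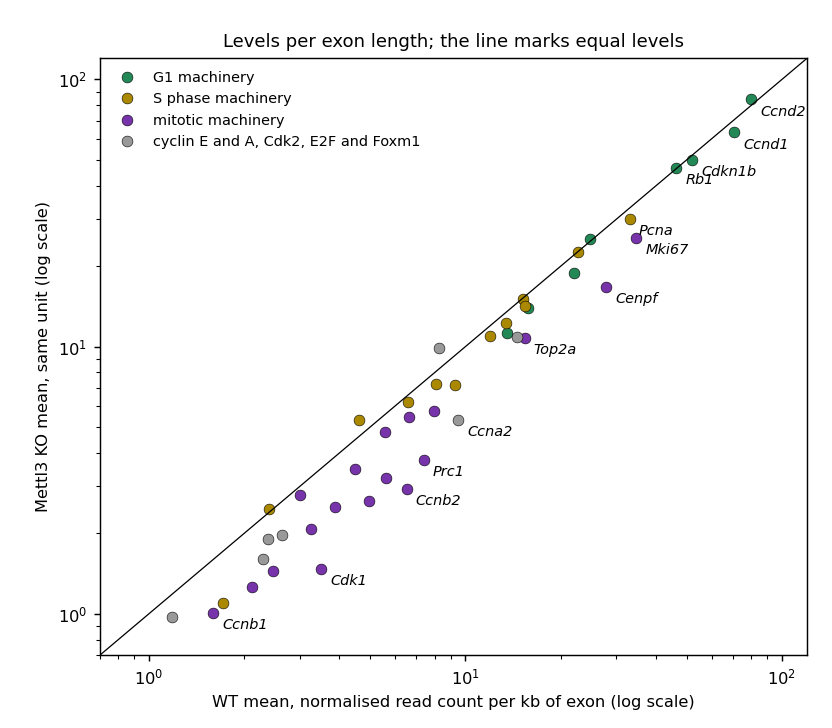
Mean level of each member in Mettl3 KO against WT, in normalised read counts per kb of exon on log axes; the line marks equal levels. G1 members (green) lie on or near the line at the upper end, from 11.2 to 84.1 per kb in Mettl3 KO, and the mitotic members (purple) lie below it, Birc5 (2.79 against 3.01 in WT) least.

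The spread among WT hearts was itself larger in these genes. The coefficient of variation had a median of 28.6% over the 45 members in WT and of 18.6% in Mettl3 KO, and was the larger in WT for 28 of 45. Over all measurable genes the medians were 11.7% and 11.9%, and 47.4% of genes had the larger value in WT. Members are also lower in level than other genes (median mean value 36.0, beside 63.8), and the part of level in this spread was not tested. By role, the WT medians ran from 4.4% for the inhibitors and pocket protein (4.68% in Mettl3 KO) to 64.8% for mitotic entry (39.6%). They were 40.8% in WT and 11.4% in Mettl3 KO for spindle, kinetochore and cytokinesis members, and 31.7% and 36.0% for transcription factors. Over the 109 other cycle genes described below, the medians were 13.4% in WT and 15.0% in Mettl3 KO.

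The calls depended on which hearts entered the fit. Without WT replicate 3, 8 members were called lower (Mki67, Top2a, Ccna2, Cdk1, Kif11, Kif20a, Cenpf and Prc1), and 1292 of 20334 genes were called in either direction. Without WT replicate 2, 2 members were called lower (Cdk6 and Cenpf), and 1142 of 20312 genes in either direction. Leaving out WT replicate 4 or Mettl3 KO replicate 2 gave 1 call among the members, Cenpf, of 1185 and 1133 genes called in all. Members called were Cdk1 and Cenpf without WT replicate 1 or Mettl3 KO replicate 4, of 1165 and 1140 genes called in all. They were Cdk2 and Cenpf without Mettl3 KO replicate 3 (1019 genes in all), and Cdk6, Cdk1 and Cenpf without Mettl3 KO replicate 1 (1596). With neither WT replicate 2 nor 3, a setting chosen after seeing the data, Mki67, Ccna2, Cenpf and Prc1 were called and 40 of the 45 had a negative log2 change. No setting called a member higher.

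Other genes of the cycle, 114 listed by function of which 109 were measurable, gave 2 calls lower and 0 higher, with 73 of 109 negative and a median of -0.07. E2f7, an E2F family repressor of S phase genes, was at 30, 27, 30 and 29 in WT and at 9, 27, 12 and 17 in Mettl3 KO (-0.91, SE 0.26, limma adjusted p = 0.0308). The other 3 Mettl3 KO hearts lay below every WT heart, and Mettl3 KO replicate 2 was at the lowest WT value. Incenp, the scaffold of the chromosomal passenger complex, was at 55, 67, 43 and 61 against 34, 43, 39 and 33 (-0.58, SE 0.15, limma adjusted p = 0.0221), and the genotypes met at 43. E2f7 lost its call under 10 and Incenp under 6 of the 22 settings. The 25 other spindle, kinetochore and cytokinesis genes had a median of -0.44 with 20 negative. Summed, they came to 891, 1161, 725 and 975 in the WT hearts against 801, 890, 769 and 883 in the Mettl3 KO hearts, so that WT replicate 3 lay below every Mettl3 KO heart and WT replicate 2 was highest. Cenpa, 1 of the 5 with a positive log2 change (0.23, SE 0.08), had the largest values of the 25. It was at 179, 185, 150 and 172 in WT and at 178, 218, 204 and 207 in Mettl3 KO. The place of WT replicate 3 below Mettl3 KO replicate 3 in the sum depended on this gene. The medians were -0.07 for 13 cohesin and condensin genes, -0.05 for 27 of origin recognition and the replication fork, -0.07 for 11 regulators of CDK activity, -0.01 for 16 of the E2F, pocket protein and MuvB families and 0.00 for 17 of the anaphase promoting complex. At an unadjusted limma p under 0.05, 12 of the 109 were lower and 9 higher, beside 11.0% and 12.4% of all measurable genes.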

How the data were processed

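Stranded single-end RNA-seq libraries had been made from total RNA of 8 hearts. According to the methods and the processing notes, the authors trimmed reads with Trimmomatic 0.39, aligned them to mm39 with STAR 2.7.11a, dropped duplicates (Picard 3.1.1) and reads that were ribosomal, mitochondrial or mapped to several places, and counted exonic reads with featureCounts 2.0.4, keeping strand. Dropping reads with several places lowers genes with near-identical copies. The deposited values are a score, DESeq2 1.36.0 normalised counts that the authors rounded to whole numbers, and not raw counts. From the spacing of low values the reads behind them were estimated at 2631904 to 3061253 per library.

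The planned count test needed raw counts, so the named fallback was used: limma 3.58.1 in R 4.3.3 on log2(value + 1), with a trend of variance on mean and a term for genotype alone, over the 20313 genes with a mean of at least 1, two-sided, with Benjamini-Hochberg adjustment and a threshold of 0.05. Fold changes on this scale understate the change of low genes. Single genes were also tested with an exact permutation test of the difference of mean log2(value + 1) (scipy 1.17.1). Of 20313 genes, 1607 were called (958 higher, 649 lower). A simulation (dispersion 0.01) changed 200 genes, each by 1 in log2. The fit recovered 95.4% of 152 with a mean value of at least 20 and 16.7% of 48 below. Of its calls 0.649% were false, and with nothing changed it called 0 of 20310. The simulation gave every gene the same dispersion and no shift shared by the genes of a library. Members spread more among WT hearts than all measurable genes did (median coefficient of variation 28.6%, beside 11.7%), so these shares need not hold for them.

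Although no measured value entered the rule for the members, they, the gene lists and the sets by phase were chosen with earlier results of these data known. Named in full were called members and Mki67, Top2a, Cdk1, Ccnb1, Ccna2, Ccnd1, Ccnd2, Cdk4, Rb1 and Cdkn1b, and of the other cycle genes those called and the CDK inhibitors; further members were named with values after these were seen. Gene positions are those of the table (mm39). Exon lengths came from a GRCm38 annotation by gene identifier (45 of 45 members) and promoters from RefSeq GRCm38.p6 by symbol; a gene counted as holding a motif if any of its start sites did. Alternatives were other pseudocounts, filters, scalings and variance models, the replicate number as a block and each library left out. Voom on recovered reads, and the fit without WT replicates 2 and 3, were added after seeing the data.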

Additional observations from a re-analysis of the deposited data

Results flagged for a closer look

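Each member and Mettl3 were searched for a library far from the other 3 of its genotype, by the gap to the nearest value divided by the range (Dixon's test, 95% level, 4 samples). Of 92 groups 4 were marked, and chance gives about 1 in 20, or 4.6. Cdkn1b was low in Mettl3 KO replicate 1, at 212 beside 233 to 234 (0.955). Plk1 was low in WT replicate 1, at 7 beside 9 in each of the others (1.0). Cenpe was low in Mettl3 KO replicate 3, at 35 beside 43 to 44 (0.889). Prc1 was high in Mettl3 KO replicate 4, at 35 beside 29 to 30 (0.833).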

How the results depend on the processing

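Over 22 alternative settings the median log2 fold change of the members lay between -0.39 (without WT replicate 3) and -0.16 (without WT replicate 2), Mettl3 between -0.71 and -0.55 (limma adjusted p = 6.78e-05 to 0.0299) and Cenpf between -0.79 and -0.65 (limma adjusted p = 2.75e-07 to 0.0406), and 0 members were called higher. In limma without a trend, 321 genes were called in all, 1 member was called lower, and 0 of the other cycle genes lower and 1 higher. Leaving out each library in turn gave 1019 to 1596 genes called in all, 1 to 8 members called lower, and 0 to 4 of the other cycle genes lower and 0 to 1 higher. Without WT replicates 2 and 3 the calls were 735 genes in all, 4 members and 0 of the other cycle genes. The sign of low or unchanged genes turned when a library was left out, with Ccnb1 at -1.10 to 0.13, Cdk4 at -0.06 to 0.10 and Rb1 at -0.01 to 0.04 on the log2 scale. Correlations of deviations between hearts of the same number were 0.0672, 0.0335, -0.0238 and 0.0619. Between hearts of unlike number they ran from -0.15 to 0.145. The labels do not say whether hearts of the same number share an origin, and these values cannot settle it. With the replicate block, 4 members (Ccna2, limma adjusted p = 0.0394, besides the 3) and 1 other cycle gene, Incenp, were called lower, of 1346 genes called in all. The causes of these shifts were not tested, other than that fewer libraries entered the fits that left some out. The simulation (dispersion 0.01) recovered 16.7% of changes at mean values of 3 to 20. Cdk1, a called member (mean value 12.2), lies in this range. So do the B cyclins, the mitotic kinases and checkpoint members other than Bub1b, and further members. The effect of depth on them was not tested.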
